A study of Homo sapiens with 6 samples.

Results

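The 10 genes described here encode core regulators of the BCL2 family, and they were taken by gene symbol from an expression table of 58735 genes measured in TPC-1, a human papillary thyroid carcinoma cell line. They fall into 3 roles. *BCL2*, *BCL2L1* and *MCL1* are pro-survival, *BAX* and *BAK1* are pore-forming, and *BBC3*, *PMAIP1*, *BID*, *BCL2L11* and *BIK* are BH3-only. All 10 symbols were found, each in 1 row. RNA was sequenced from 3 libraries of wild-type TPC-1 cells and from 3 libraries of RRM2-OE-TPC-1 cells, which carried a lentivirus that drove *RRM2*, the small subunit of ribonucleotide reductase, from a CMV promoter and had been selected with puromycin. The wild-type cells were neither infected nor selected as far as the labels say, and no empty-vector library was analysed here, so infection and selection cannot be told apart from *RRM2* in any difference below. By the study's methods the libraries of each line are biological triplicates, though how the replicates were grown apart is not described, and the p-values measure only the spread between these libraries. Neither the labels nor the methods say whether the overexpressing cells were 1 clone.

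The BCL2 family controls the mitochondrial route to apoptosis. Pro-survival members bind and hold back their relatives, *BAX* and *BAK1* products form pores in the outer mitochondrial membrane that release cytochrome c, and BH3-only proteins sense stress and either neutralise the pro-survival proteins or activate the pore formers directly. Much of this control acts on protein, by binding, cleavage and turnover, and RNA levels do not measure it.

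The libraries held 14317091 to 17084067 reads on genes. *RRM2* checked the labels: its level was 9.17, 9.05 and 8.52 FPKM (fragments per kilobase of gene, scaled by a depth for each library) in TPC-1 replicates 1, 2 and 3, and 50.4, 47.5 and 47.2 FPKM in RRM2-OE-TPC-1 replicates 1, 2 and 3. These gene-level values do not separate the added *RRM2* from the cell's own. The genotype label names *RRM3* for overexpressing replicate 2 and *RRM4* for overexpressing replicate 3, whereas the titles name *RRM2*, and the *RRM2* level was high in all of them. Of 11 thyroid and epithelial markers, 4 (*PAX8*, *FOXE1*, *KRT8* and *KRT18*) had a mean over 1 FPKM, *NKX2-1* was at 0 in every library, and among the others *TG*, *TSHR*, *SLC5A5*, *KRT19* and *EPCAM* were close to 0. Summed markers of other cell types were low (wild-type range first, overexpressing range second), at 0.350 to 0.410 and 0.107 to 0.183 FPKM for 5 leukocyte genes, 0.873 to 1.05 and 0.0667 to 0.115 FPKM for 3 endothelial genes, and 2.78 to 3.16 and 2.78 to 2.94 FPKM for 5 fibroblast genes. At 0 in every library were 3 of the leukocyte and 2 of the fibroblast markers. The part of these differences in the results was not tested.

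Of the 10 members, 9 passed the minimum level for testing, and *BIK* did not. In RRM2-OE-TPC-1, 7 members were higher (*BAX*, *BBC3*, *BAK1*, *BID*, *PMAIP1*, *BCL2L1* and *MCL1*), *BCL2L11* was lower, and *BCL2* did not pass the threshold, an adjusted p of 0.05 by limma over the 13621 genes tested. The background was high: 67.6% of all genes tested passed, 34.9% as higher and 32.7% as lower, so a call on its own sets no member apart. A change of at least 2-fold was less common, at 4.48% of genes upwards and 6.97% downwards, and *BAX* and *BCL2L11* passed it, one in each direction. The 3 libraries of one group did not overlap the 3 of the other for 8 of the 9 tested members, as for 72.2% of all genes tested. The median log2 fold change was 0.40 over the tested members and 0.01 over all genes tested. In such bulk RNA, fewer cells of a type and less RNA per cell cannot be told apart.

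**Figure D1:**
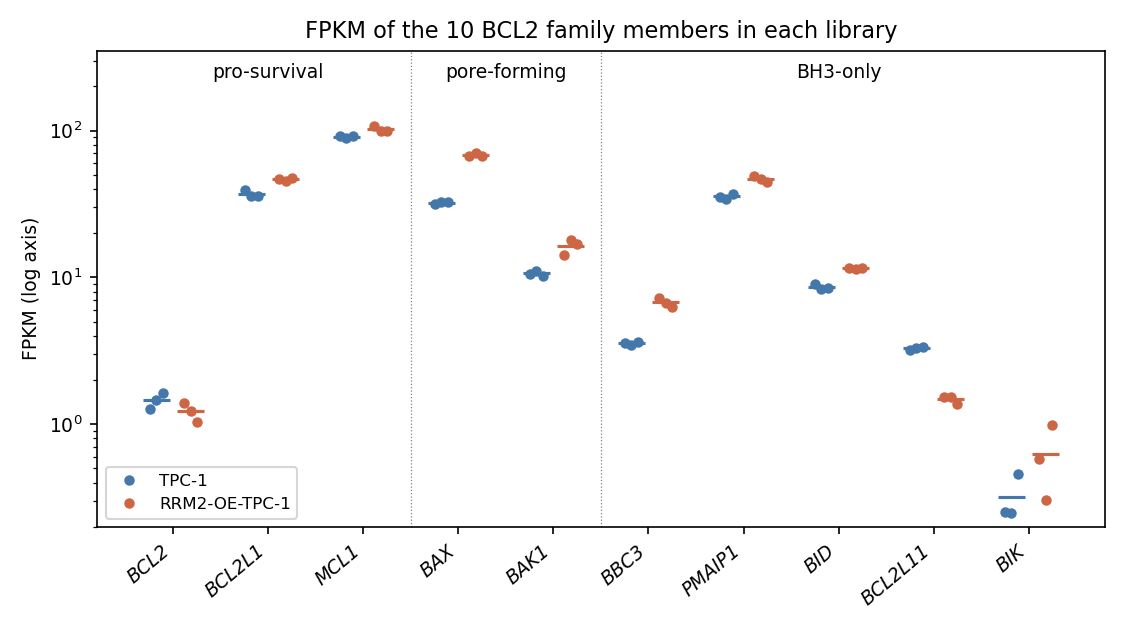
FPKM (log axis) of the 10 members in each of the 6 libraries, in order of role; points are libraries in the order of their replicate numbers and bars are group means (n = 3). *BAX* and *BBC3* lie well above their TPC-1 points, *BCL2L11* lies below, and the *BCL2* and *BIK* points of both groups overlap.

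Among the pro-survival members, *MCL1* was the most abundant and *BCL2* by far the least. *MCL1* (chr1:150574551-150579738, minus strand, GRCh38), whose product is short-lived and binds BH3-only proteins such as those of *PMAIP1* and *BCL2L11*, stood at 92.5, 88.6 and 91.9 FPKM in TPC-1 and at 107, 98.9 and 99.97 FPKM in RRM2-OE-TPC-1. Every overexpressing library lay above every wild-type one, but the step was small, a log2 fold change of 0.16 (SE 0.040; limma adjusted p = 0.00694). *BCL2L1* (chr20:31664452-31723989, minus strand), the gene of BCL-XL, was at 39.2, 35.9 and 35.6 FPKM in TPC-1 and at 46.8, 45.7 and 47.4 FPKM in RRM2-OE-TPC-1. The groups were again apart, with a log2 fold change of 0.34 (SE 0.0435; limma adjusted p = 0.00021). The *BCL2L1* row counts all its transcripts together, so the pro-survival long form and the pro-death short form of the gene are not distinguished. Its exons share 1424 bases with *ABALON* on the other strand, which averaged 1.64 FPKM against 41.8 FPKM for *BCL2L1*.

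*BCL2* (chr18:63123346-63320128, minus strand), the founding member of the family, was at 1.28, 1.46 and 1.64 FPKM in TPC-1 and at 1.41, 1.23 and 1.04 FPKM in RRM2-OE-TPC-1. The highest overexpressing library lay above the lowest wild-type one, and the group means of 1.46 ± 0.182 and 1.23 ± 0.183 FPKM (SD, n = 3) were close. The log2 fold change was -0.24, with a 95% interval of -0.57 to 0.10 and a limma adjusted p of 0.18, so the data allow a fall of that size or no fall. A weighted test of the recovered reads (voom) called *BCL2* lower, at -0.26 with a limma adjusted p of 0.0359. Each library held 195 to 308 *BCL2* reads. By contrast, *MCL1* had 6404 to 7402.

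Both pore-forming members rose. *BAX* (chr19:48954815-48961798, plus strand) showed the larger change, and the 190 bases before its first annotated exon are shown because *BAX* is the member that rose past 2-fold. They are RefSeq sequence of GRCh38.p14, chr19:48954625-48954814, plus strand, with the letters CACGTG, the core of an E-box, in capitals.
*BAX*: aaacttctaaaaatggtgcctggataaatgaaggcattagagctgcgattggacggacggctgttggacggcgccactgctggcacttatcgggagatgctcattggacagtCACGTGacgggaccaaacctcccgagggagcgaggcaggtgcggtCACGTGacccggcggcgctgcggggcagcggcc
The capitals mark 2 matches, and another 2 lie in the following 60 bases, inside the annotated exon, which makes 4 within the 250 bases before the RefSeq start. CACGTG, which reads the same on both strands, was found at least once in 6.35% of 35116 RefSeq promoter windows of that length, and 5 windows held 4 or more copies. The motif was picked after the sequence had been seen, and a match does not show that a factor binds.

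*BAX* was at 31.4, 32.4 and 32.5 FPKM in TPC-1 and at 67.2, 70.4 and 67.3 FPKM in RRM2-OE-TPC-1. The replicates were tight and the groups far apart, at 32.1 ± 0.605 against 68.3 ± 1.85 FPKM (SD, n = 3). The log2 fold change of 1.09 (SE 0.0340, 95% interval 1.01 to 1.17; limma adjusted p = 1.28e-07) was above that of 96.3% of the genes tested. *BAK1* (chr6:33572547-33580293, minus strand), which acts alongside *BAX* and sits in the outer mitochondrial membrane in healthy cells, was at 10.6, 11.1 and 10.2 FPKM in TPC-1 and at 14.1, 17.9 and 17.0 FPKM in RRM2-OE-TPC-1. Replicate 1 was the lowest of the overexpressing libraries but still lay above all of the wild-type ones, and the log2 fold change was 0.61 (SE 0.0859; limma adjusted p = 0.000355).

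The BH3-only members did not move together. *BBC3*, which encodes PUMA, which binds all pro-survival proteins, lies at chr19:47220822-47232766 on the minus strand. Its levels were 3.56, 3.48 and 3.63 FPKM in TPC-1 and 7.29, 6.70 and 6.26 FPKM in RRM2-OE-TPC-1. The groups were clearly apart, with a log2 fold change of 0.90 (SE 0.0690, 95% interval 0.74 to 1.06; limma adjusted p = 1.05e-05), just short of 2-fold. *PMAIP1* (chr18:59899948-59904306, plus strand), which encodes NOXA, a partner of MCL1, was far more abundant than *BBC3* in wild-type cells, at 35.3, 34.3 and 37.3 FPKM. It reached 49.4, 46.7 and 45.0 FPKM in RRM2-OE-TPC-1, a log2 fold change of 0.40 (SE 0.0465; limma adjusted p = 0.000117). *BID* (chr22:17734138-17774770, minus strand), whose product is cut by caspase-8 and so links death receptors to mitochondria, had close replicates, with 8.98, 8.33 and 8.51 FPKM in TPC-1 and 11.7, 11.4 and 11.5 FPKM in RRM2-OE-TPC-1. Its log2 fold change was 0.42 (SE 0.0446; limma adjusted p = 6.64e-05).

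*BCL2L11* encodes BIM, a BH3-only protein that can activate BAX directly and that forkhead (FOXO) factors are known to transcribe. It lies at chr2:111119378-111168447 on the plus strand, and the 250 bases before its RefSeq start are shown because it is the member that fell past 2-fold. They are RefSeq sequence of GRCh38.p14, chr2:111120664-111120913, plus strand, with the letters GTAAACA, a FOXO core motif, in capitals.
*BCL2L11*: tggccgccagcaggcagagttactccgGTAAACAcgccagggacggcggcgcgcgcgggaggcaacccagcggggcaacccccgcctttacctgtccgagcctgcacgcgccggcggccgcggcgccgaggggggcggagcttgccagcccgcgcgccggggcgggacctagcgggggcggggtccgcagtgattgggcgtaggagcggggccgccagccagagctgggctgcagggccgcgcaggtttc
The window lies inside the annotated gene span but in none of its exons. The 1 match lies 223 to 217 bases before the start, and GTAAACA was found on either strand in 2.98% of the windows. This motif too was picked after the sequence had been seen. The window was rich in G and C, at 76.8%, compared with 62.8% for the *BAX* window, and held no TATA box (TATAAA).

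The *BCL2L11* level was 3.22, 3.33 and 3.35 FPKM in TPC-1 and 1.54, 1.53 and 1.38 FPKM in RRM2-OE-TPC-1. Every overexpressing library was below every wild-type one by a wide margin, at 1.48 ± 0.0923 against 3.30 ± 0.0677 FPKM (SD, n = 3). The log2 fold change was -1.10 (SE 0.0837, 95% interval -1.30 to -0.91; limma adjusted p = 1.01e-05), and 5.81% of the genes tested had a value as low or lower. The exons share 727 bases with *MIR4435-2HG*, a long non-coding RNA gene on the opposite strand, and whether reads were counted by strand is not given in the sources used here. *MIR4435-2HG* went the other way, from 3.46 ± 0.165 to 5.15 ± 0.230 FPKM (SD, n = 3), with a log2 fold change of 0.56 (limma adjusted p = 0.000127). *BIK* (chr22:43110748-43129712, plus strand), an endoplasmic reticulum BH3-only protein, was close to silent, with 0.252, 0.250 and 0.461 FPKM in TPC-1 and 0.581, 0.306 and 0.988 FPKM in RRM2-OE-TPC-1. These values rest on 4 to 15 reads per library, 15 in all for TPC-1 and 28 for RRM2-OE-TPC-1, the groups overlap, and a difference was not detectable at this depth.

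**Figure D2:**
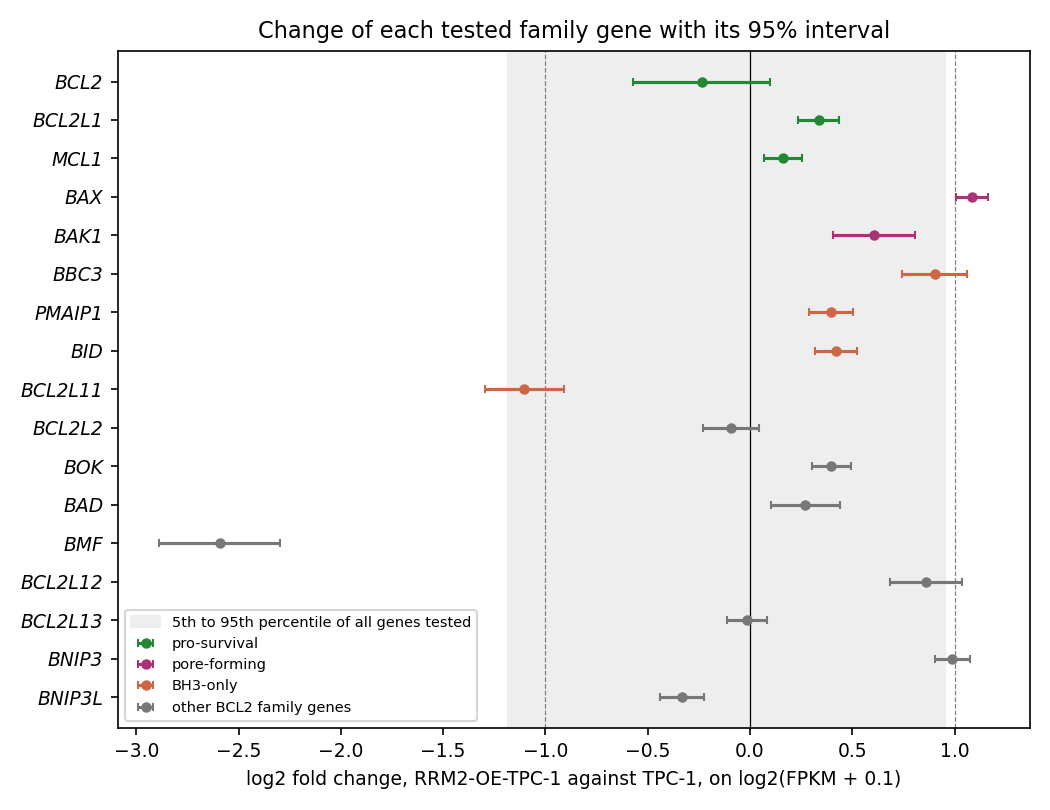
Log2 fold change of RRM2-OE-TPC-1 against TPC-1 on log2(FPKM + 0.1) for the 9 tested members and 8 other tested BCL2 family genes, with 95% intervals from limma (3 libraries a group); colours are roles, dashed lines mark 2-fold and the grey band spans the 5th to 95th percentile (-1.18 to 0.95) of all genes tested. *BAX* and *BNIP3* lie above the band, *BMF* lies far below it, and *BCL2L11* lies near its lower edge.

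The order of the levels changed in the middle of the list. In TPC-1 it was *MCL1*, *BCL2L1*, *PMAIP1*, *BAX*, *BAK1*, *BID*, *BBC3*, *BCL2L11*, *BCL2* and *BIK* from high to low in FPKM, which is a level per length. The libraries of each neighbouring pair were apart except for *BCL2L1* and *PMAIP1*, which overlapped. In RRM2-OE-TPC-1, *BAX* stood in second place behind *MCL1*, followed by *PMAIP1* and *BCL2L1*, which again overlapped. The lower ranks were in the same order, but *BCL2L11* and *BCL2*, separate in TPC-1, overlapped in RRM2-OE-TPC-1. Both orders rest on the deposited gene lengths, and other lengths were not tried.

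Pro-survival and pro-death members were then set against each other within each library, as a description without a test. Of the 3 pro-survival genes, 2 were higher and their median log2 fold change was 0.16. Of the 6 pro-death genes tested out of 7, 5 were higher and 1 was lower, with a median of 0.51. Over all genes tested, 34.9% were higher and 32.7% lower, with a median of 0.01. Summed over the 3 pro-survival genes the level was 133, 126 and 129 FPKM in TPC-1 and 155, 146 and 148 FPKM in RRM2-OE-TPC-1. Summed over the 7 pro-death genes it was 93.4, 93.3 and 95.9 FPKM in TPC-1 and 152, 155 and 149 FPKM in RRM2-OE-TPC-1. Pro-death transcript was therefore the smaller sum in each wild-type library, while the sums were nearly level in the overexpressing ones. The ratio of the sums was 0.728 ± 0.0226 in TPC-1 and 1.02 ± 0.0436 in the overexpressing libraries (SD, n = 3), without overlap. Of the rise in the pro-death sum, the greater share came from the pore formers, which went from 42.8 ± 0.770 to 84.7 ± 3.56 FPKM, whereas the BH3-only sum went from 51.4 ± 1.73 to 67.4 ± 2.73 FPKM. Most of the pore-forming rise was *BAX* alone, from 32.1 to 68.3 FPKM, against 10.7 to 16.3 FPKM for *BAK1*. The shift of the sums therefore rests largely on 1 gene.

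The ratio of *BAX* to *BCL2*, a common summary of the balance, was 24.6, 22.3 and 19.8 in TPC-1 and 47.8, 57.3 and 64.7 in the overexpressing libraries. All of the overexpressing libraries were above all of the wild-type ones, by 1.34 on average on the log2 scale. Because *BCL2* was so low, it made up 1.13% ± 0.157 of the pro-survival sum in TPC-1 and 0.817% ± 0.105 in the overexpressing libraries, and *MCL1* made up 70.3% ± 0.809 and 68.0% ± 0.816. Against the abundant pro-survival genes the shift of *BAX* was smaller. Log2 *BAX* minus log2 *MCL1* went from -1.50 ± 0.0542 to -0.58 ± 0.0914, and log2 *BAX* minus log2 *BCL2L1* from -0.20 ± 0.104 to 0.55 ± 0.0638 (SD, n = 3). In FPKM, *BAX* was thus below *BCL2L1* in every wild-type library and above it in every overexpressing one, and below *MCL1* in all 6 libraries. These comparisons between genes rest on the deposited gene lengths, 2587 bases for *BAX*, 3314 for *BCL2L1* and 4371 for *MCL1*. Other lengths could change them and were not tried. For protein, the study's Western blots reported less BAX in RRM2-OE-TPC-1 than in control cells, the other direction from *BAX* RNA. They also reported more BCL2, whose RNA did not pass the threshold here. The study's flow cytometry reported a lower apoptosis rate in RRM2-OE-TPC-1. Both assays were reported to go the opposite way after *RRM2* knockdown. RNA was not compared with protein here.

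Within the 5 BH3-only members the make-up changed at its low end. Their sum leaves out the other BH3-only genes, such as *BMF* (3.58 to 0.511 FPKM) and *BAD* (7.81 to 9.44 FPKM, means of TPC-1 and RRM2-OE-TPC-1). Shares of a sum that holds those genes were not computed and may differ. *PMAIP1* made up 69.3% ± 0.639 of the BH3-only sum in TPC-1 and 69.7% ± 0.596 in the overexpressing libraries, and the libraries overlapped. *BCL2L11* went from 6.42% ± 0.240 to 2.20% ± 0.0954 (SD, n = 3). The ratio of *BBC3* to *BCL2L11*, members that stood at like levels in wild-type cells, was 1.11, 1.04 and 1.09 in TPC-1 and 4.74, 4.37 and 4.55 in the overexpressing libraries. This pair was set side by side because its members moved in opposite directions.

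**Figure D3:**
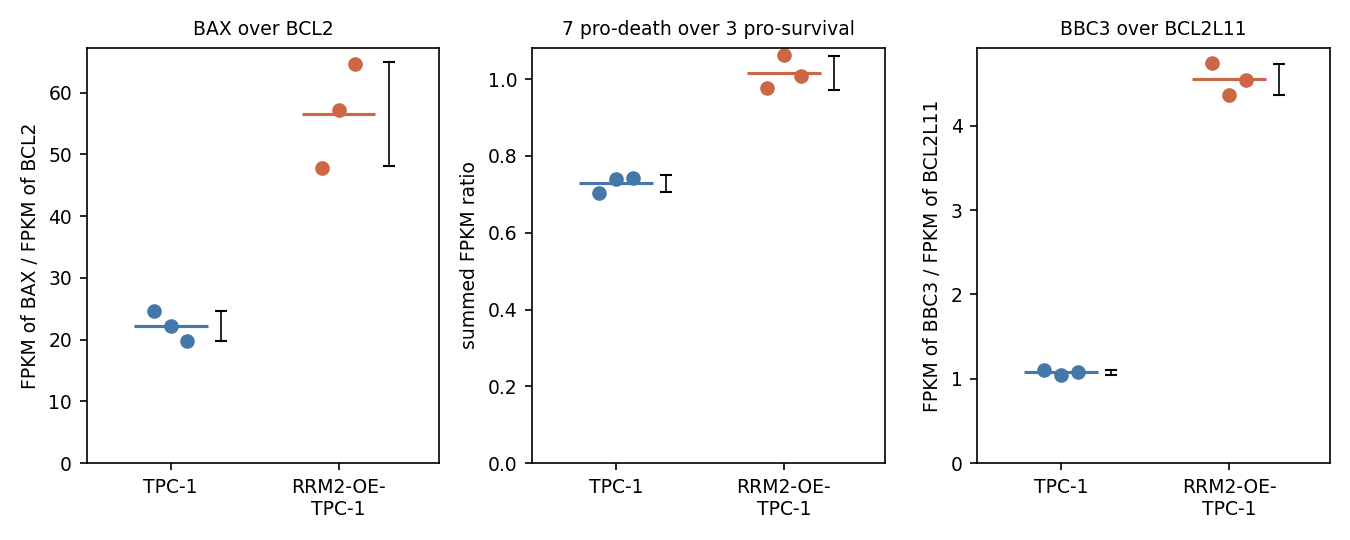
Ratios of FPKM within each library on axes that start at 0: *BAX* over *BCL2*, the sum of the 7 pro-death over that of the 3 pro-survival members, and *BBC3* over *BCL2L11*; points are libraries, coloured bars are means and black bars are ± 1 SD (n = 3). No ratio overlaps between the groups, which for *BBC3* over *BCL2L11* follows from picking a pair that moved in opposite directions. The sum ratio moves from 0.728 to 1.02 and leaves out other expressed family genes.

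Of 14 other genes of the family, 8 were tested, 4 were higher and 2 were lower, with a median log2 fold change of 0.13. With so few genes, 6 calls of 8 are near the 67.6% called over all genes. *BMF*, a BH3-only gene whose product is held at the cytoskeleton by dynein light chain 2, had the largest fall of any family gene tested. It was at 3.42, 4.00 and 3.32 FPKM in TPC-1 and at 0.470, 0.589 and 0.472 FPKM in RRM2-OE-TPC-1, a log2 fold change of -2.59 (SE 0.128; limma adjusted p = 1.09e-06). *BCL2L11* and *BMF*, both BH3-only, were thus the family genes that passed 2-fold downwards. *BNIP3*, a hypoxia-inducible mitophagy receptor, went from 16.5 ± 0.529 to 32.9 ± 0.631 FPKM (SD, n = 3; log2 fold change 0.99, limma adjusted p = 3.06e-07), while its paralogue *BNIP3L* went from 24.4 ± 0.727 to 19.3 ± 0.982 FPKM (-0.33; adjusted p = 0.00032). *BCL2L12* was also higher, with a log2 fold change of 0.86, but its exons share 734 bases with *IRF3* on the other strand, which had a like level of 12.8 FPKM. *BOK*, a pore former of the BAX type, was higher by 0.40 and *BAD*, whose BH3-only product is controlled by phosphorylation, by 0.27. The *BAD* exons share 404 bases with *GPR137* on the other strand, which averaged 5.92 FPKM. *BCL2L2* and *BCL2L13* did not pass the threshold, and *HRK* had no reads in any library.

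Machinery downstream of the mitochondrial pore was examined next, in a list that also held channels of the outer membrane (*VDAC1*, *VDAC2* and *VDAC3*). Of the 17 genes of this list, 16 were tested, 12 were higher, against 34.9% of all genes tested, 1 was lower, against 32.7%, and none passed 2-fold in either direction. The channels were all among those called higher. *DIABLO*, listed in 2 rows that share 2006 bases on the same strand, was under the minimum level. How reads in shared bases were counted is not stated, so its level is uncertain. The median log2 fold change was 0.43. Among the larger changes were those of *VDAC3*, a channel of the outer mitochondrial membrane, which went from 20.1 ± 1.26 to 37.3 ± 1.87 FPKM (0.89; limma adjusted p = 3.68e-06), and *CYCS*, somatic cytochrome c, from 25.7 ± 0.709 to 45.5 ± 0.813 FPKM (0.82; 4.98e-07; SD, n = 3). The gene that was lower was *XIAP*, a caspase inhibitor, with a log2 fold change of -0.30. The other inhibitor of apoptosis genes of the list were higher, *BIRC5* (survivin, which also acts in cell division) by 0.70, *BIRC3* by 0.31 and *BIRC2* by 0.25. The *BIRC3* call was lost under 5 of 14 alternatives, with a limma adjusted p of up to 0.0691, among them those without TPC-1 replicate 3 (0.0504), RRM2-OE-TPC-1 replicate 1 (0.0537) or RRM2-OE-TPC-1 replicate 3 (0.0538). These are RNA levels, and caspase activation is not read by them.

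Transcription factors known to act on family genes moved in both directions. Of 16 genes, 14 were tested, 3 were higher, against 34.9% of all genes tested, 7 were lower, against 32.7%, and the median log2 fold change was -0.18. *DDIT3*, the stress factor CHOP, was at 24.9, 21.5 and 23.7 FPKM in TPC-1 and at 6.78, 6.25 and 6.24 FPKM in RRM2-OE-TPC-1, a log2 fold change of -1.85 (SE 0.0629; limma adjusted p = 1.95e-07). Its exons share 355 bases with *MARS* on the other strand, which averaged 40.7 FPKM. *FOXO3*, a FOXO factor known to transcribe *BCL2L11* and *BBC3*, went from 18.1 ± 0.236 to 9.38 ± 0.535 FPKM (SD, n = 3; -0.94, limma adjusted p = 1.44e-06). *E2F1*, a cell cycle factor known to induce several pro-death genes, went from 9.89 ± 0.908 to 19.2 ± 0.805 FPKM (0.96; limma adjusted p = 7.66e-06). Whether these changes are tied to those of the members was not tested.

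The last group held 11 genes whose products bind, modify or turn over family proteins. All were tested, 5 were higher and 1 was lower, none passed 2-fold, and the median log2 fold change was 0.15. With so few genes, this share of calls is not far below the 67.6% over all genes. The 14-3-3 genes *YWHAQ* and *YWHAZ*, whose products hold phosphorylated BAD away from mitochondria, led the list. *YWHAQ* went from 128 ± 1.58 to 196 ± 1.74 FPKM (0.62; limma adjusted p = 1.03e-06) and *YWHAZ* from 109 ± 1.38 to 166 ± 3.36 FPKM (0.60; 1.45e-06; SD, n = 3). *FBXW7*, a ubiquitin ligase subunit that targets MCL1 for degradation, was higher by 0.38 (limma adjusted p = 0.0109).

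**Figure D4:**
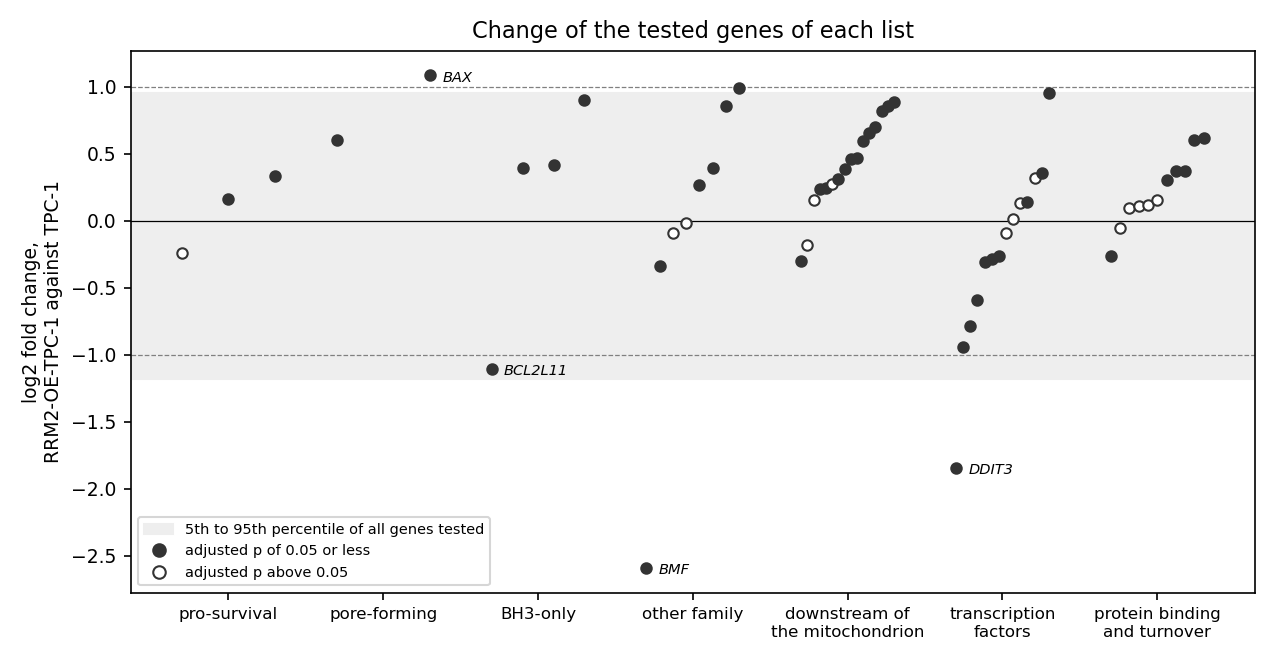
Log2 fold change of RRM2-OE-TPC-1 against TPC-1 for each tested gene of the members' 3 roles and of the 4 other lists; filled points passed an adjusted p of 0.05 (limma, 3 libraries a group), open points did not, and the grey band spans the 5th to 95th percentile of all genes tested. Points past the dashed 2-fold lines are named: *BAX* above, and *BCL2L11*, *BMF* and *DDIT3* below.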

How the data were processed

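RNA of 3 TPC-1 and 3 RRM2-OE-TPC-1 libraries was measured. The values are FPKM per gene, which the authors computed from gene counts and deposited in 1 table. The submitters' processing notes name GRCh38 p14, HISAT2 2.0.5, featureCounts 1.5.0 and DESeq2 1.20.0. By the labels, rRNA was depleted and linear RNA digested with RNase R, whereas the study's methods describe poly(A) selection, so the library preparation is uncertain. Gene positions equal those of GENCODE 29. Gene length, also deposited, turned each FPKM value into a whole number of reads (within 0.01) and so gave the scaling depth of each library. That depth was 1.03 to 1.05 times the reads on genes in TPC-1 and 0.997 to 1.01 times in RRM2-OE-TPC-1. Relative to size factors from the median of read ratios it was 0.999 to 1.001, so the deposited values were scaled like those factors. In addition, 12 symbols altered to dates were restored.

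limma 3.58.1 (R 4.3.3) with a mean-variance trend was fitted to log2(FPKM + 0.1) of the 13621 genes with at least 0.5 FPKM and 10 reads in at least 3 libraries, with Benjamini-Hochberg adjustment over all of them and no covariate. A gene was called at an adjusted p of 0.05, the threshold in the study's methods. The study's volcano plot also required an absolute log2 fold change above 1, which was not part of the call here. Fold changes are on the log2(FPKM + 0.1) scale, which understates the change of low genes. An exact permutation test of 3 against 3 libraries cannot go below p = 0.1, so none was run.

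The members and lists were chosen with earlier results of these data known. All members are named; of each other list, genes past 2-fold or the 3 largest changes, with a few more for context (*BNIP3L*, *BOK*, *BAD*, *XIAP*, *BIRC2*, *BIRC3* and *BIRC5*). Promoter windows of 250 bases came from RefSeq (GRCh38.p14), which matched 8 of the 10 members in 13 windows, and both strands were searched. Protein stretches planned for the members were not analysed here. Motifs were searched by the letters given, and the E-box and FOXO letters were chosen after the sequences had been seen. Some items under these rules are not reported here. No pair of libraries agreed within counting noise. Alternatives covered the pseudocount, filter, scaling, test, replicate number and each library.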

Additional observations from a re-analysis of the deposited data

How the results depend on the processing

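The counts of members and of other family genes that were higher or lower were recomputed under 14 alternatives. The 7 members called higher stayed 7 in all, and the other family genes were 4 higher and 2 lower in all but the fit with no filter, which gave 5 higher because *BCL2A1* was tested and called. Members called lower were 1 in all but the voom fit, which gave 2 because *BCL2* was called as well, and which called 9577 genes in all against 9207. Members past 2-fold were 2, but 1 with a pseudocount of 1, where *BCL2L11* came to -0.79 and *BMF* to -1.60; over all genes the same pseudocount left 716 past 2-fold against 1560, and no filter gave 2281. Over the alternatives the log2 fold change ran from 1.03 to 1.10 for *BAX*, from 0.76 to 0.96 for *BBC3*, from 0.54 to 0.71 for *BAK1*, from 0.11 to 0.19 for *MCL1* (adjusted p up to 0.0497 by limma), from -1.16 to -0.79 for *BCL2L11* and from -0.33 to -0.13 for *BCL2* (adjusted p 0.0359 to 0.453). With the replicate block, 7 members were higher and 1 was lower. Same-numbered libraries did not deviate together (correlations -0.011, -0.0060 and -0.055). The values thus gave no sign of pairing by number, but they cannot show how the libraries were grown or prepared. Scaling to library totals moved the median of all genes to -0.05 and the share of calls that were higher from 51.7% to 46.1%, with no change of a member's call. The alternative with median-of-ratios factors nearly repeated the main fit, since the deposited values were already scaled like those factors, so it is not a separate check.

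Depth limits *BIK*, and the other low family genes, to a handful of reads. Shared exons on opposite strands leave *BCL2L11*, *BCL2L12* and *DDIT3* uncertain to an extent that was not tested. RNA levels say nothing of protein binding or cleavage.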

Other observations

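*BCL2A1*, a pro-survival gene best known in blood cells and a target of NF-kB, was under the minimum level for testing. It had 1, 0 and 0 reads in TPC-1 replicates 1, 2 and 3 and 7, 5 and 4 reads in RRM2-OE-TPC-1 replicates 1, 2 and 3. With no minimum level, its log2 fold change was 1.81 (SE 0.339; limma adjusted p = 0.00778), a value that depends on the pseudocount. *BIK* in the same fit had a log2 fold change of 0.71 (SE 0.433; limma adjusted p = 0.313).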
